A study of Mus musculus with 6 samples.

Results

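Cholesterol and fatty acid synthesis was followed through 37 genes of the 21741 gene symbols in the count files. The genes were chosen by name, as enzymes of the sterol pathway (17), of fatty acid synthesis, elongation and desaturation (9), regulators of SREBP (6) and genes of LXR (5), and all 37 were found. All passed the filter on low counts and reached at least 1 CPM in every library, CPM being the count scaled by TMM to a library of 1000000. Their counts ran from 26 to 21397 per library. RNA was sequenced from 6 libraries of mouse heart cells labelled primary cardiomyocytes, in 2 arms of 3 libraries each. The Adv-ABHD11 arm received an adenovirus for ABHD11 and is labelled with the genotype ABHD11 overexpression. The Adv-NC arm received the control adenovirus and is labelled WT. Both arms spent 24 h in hypoxia, and every library has the same batch number. The title of the series concerns ABHD11, mitochondrial function and cardiomyocyte loss after infarction. The sources used here give neither age nor the promoter in the virus. Nor do they say whether replicates came from separate hearts, so p-values measure the spread between these libraries, which may be technical.

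Cells build cholesterol from acetyl-CoA through mevalonate, isoprenoids, squalene and lanosterol, and several late steps, such as those of Sqle, Cyp51, Msmo1 and Sc5d, use molecular oxygen. SREBP transcription factors switch the pathway on. Their precursors sit in the endoplasmic reticulum bound to SCAP, which carries them to the Golgi for cleavage when sterols are scarce, while INSIG proteins hold SCAP back. LXR receptors sense oxysterols and drive cholesterol export. In the heart, where fatty acids are mainly burned, these pathways supply membranes and signalling lipids.

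Libraries held 16292756, 18539672 and 19526874 counts with Adv-ABHD11, and 18219251, 19544674 and 20338700 counts with Adv-NC. The virus-borne gene was examined first. Counts on mouse Abhd11 were 636, 769 and 736 with Adv-ABHD11, against 584, 675 and 661 with Adv-NC (log2 fold change 0.21 ± 0.101 SE, edgeR adjusted p = 0.0765). The species and sequence of the transgene are not stated in the labels, so this count checks them only in part, and the labels were taken as they stand. Transcripts of mtDNA made up 4.99% to 7.67% of counts with Adv-ABHD11 and 2.36% to 2.55% with Adv-NC. All 8 cardiomyocyte markers tested were higher with Adv-ABHD11, with summed levels of 31138 to 33094 CPM against 16951 to 18360 CPM with Adv-NC. Fibroblast markers summed to 10829 to 14611 CPM with Adv-ABHD11 and 13790 to 17041 CPM with Adv-NC, so neither arm was made up of cardiomyocytes alone. Markers of lung epithelium stood at 124 to 134 CPM in the Adv-ABHD11 libraries, against at most 0.0513 CPM with Adv-NC. Liver markers summed to at most 0.246 CPM in the Adv-ABHD11 libraries, against 11.5 CPM in Adv-NC replicate 1, most of it Alb at 10.2 CPM, and at most 0.205 CPM in the other two Adv-NC libraries. The adipocyte markers Adipoq, Plin1 and Lep were at or below 0.166 CPM in every library. Cfd stood at 0.0984 to 0.239 CPM with Adv-ABHD11 and at 0 CPM with Adv-NC. Fabp4, which endothelial cells also express, ran from 37.2 to 49.2 CPM with Adv-ABHD11 and from 8.37 to 9.13 CPM with Adv-NC.

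Upstream sequence is shown for 5 genes, so that sterol enzymes that passed can be set beside one that did not and beside Scap. Hmgcs1, Sc5d and Mvd were higher with Adv-ABHD11, Ebp is a sterol enzyme that did not pass the test, and Scap was the largest decrease. Each sequence is the 250 bases before the RefSeq start site in GRCm38.p6, read 5′ to 3′ on the strand of the gene: chr13:119690101-119690350 (plus) for Hmgcs1, chr9:42264301-42264550 (minus) for Sc5d, chr8:122443423-122443672 (minus) for Mvd, chrX:8193513-8193762 (minus) for Ebp and chr9:110333038-110333287 (plus) for Scap. Capitals mark TCACNCCAC (a form of the sterol regulatory element), CCAAT (the box bound by NF-Y) and CACGTG (an E-box), on either strand.
Hmgcs1: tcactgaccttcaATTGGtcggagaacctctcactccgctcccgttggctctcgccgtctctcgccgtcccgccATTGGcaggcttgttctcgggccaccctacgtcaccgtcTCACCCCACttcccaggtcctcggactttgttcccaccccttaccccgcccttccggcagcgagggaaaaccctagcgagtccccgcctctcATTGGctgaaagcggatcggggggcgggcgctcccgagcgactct
Sc5d: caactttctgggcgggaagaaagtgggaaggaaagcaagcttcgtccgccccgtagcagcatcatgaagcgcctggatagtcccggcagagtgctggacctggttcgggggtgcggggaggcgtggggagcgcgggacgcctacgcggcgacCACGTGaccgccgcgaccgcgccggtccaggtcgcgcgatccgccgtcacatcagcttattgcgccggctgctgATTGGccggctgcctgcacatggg
Mvd: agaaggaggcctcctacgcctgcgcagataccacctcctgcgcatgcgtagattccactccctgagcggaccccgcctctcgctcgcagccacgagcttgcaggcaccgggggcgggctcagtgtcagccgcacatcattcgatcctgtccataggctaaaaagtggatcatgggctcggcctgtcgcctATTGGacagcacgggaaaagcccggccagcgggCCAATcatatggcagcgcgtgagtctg
Ebp: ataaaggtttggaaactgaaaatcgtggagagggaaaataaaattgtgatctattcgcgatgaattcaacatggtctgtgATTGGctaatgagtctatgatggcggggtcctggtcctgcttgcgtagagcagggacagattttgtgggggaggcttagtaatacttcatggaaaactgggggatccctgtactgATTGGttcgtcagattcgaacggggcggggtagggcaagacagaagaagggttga
Scap: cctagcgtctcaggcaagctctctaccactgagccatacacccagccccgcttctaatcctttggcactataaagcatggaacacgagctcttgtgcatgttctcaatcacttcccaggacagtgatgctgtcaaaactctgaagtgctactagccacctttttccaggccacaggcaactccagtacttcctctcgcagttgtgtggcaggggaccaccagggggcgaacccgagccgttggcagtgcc

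The Hmgcs1 window held 1 match to TCACNCCAC, TCACCCCAC at 137 to 129 bases before the start site, and 3 matches to CCAAT. Mvd and Ebp each held 2 matches to CCAAT, although Mvd was higher in the Adv-ABHD11 libraries and Ebp did not pass. Sc5d held 1 CCAAT match and 1 E-box, and the Scap window shown held none of these motifs. In GENCODE M21 the Hmgcs1 and Sc5d genes start farther downstream, at 119690379 and 42264256. The windows and motif distances of Hmgcs1 and Sc5d therefore depend on the RefSeq start site. Scap has another listed start site, whose window held an E-box. RefSeq promoters were found for 29 of the 37 genes, 14 of them sterol enzymes. Among the sterol enzymes 13 of 14 held CCAAT within 250 bases, and 20 of all 29 did (69.0%), against 40.3% of 10096 tested genes with a promoter and 37.5% of all 27025 genes. TCACNCCAC was found in 1 of 29, against 1.24% of the tested genes and 1.22% of all genes. The E-box was found in 7 of 29 (24.1%), against 10.0% of the tested genes and 6.86% of all. GGGCGG, the GC box bound by SP1, was in 22 of 29 (75.9%), against 64.7% of the tested genes and 35.4% of all. Within 100 bases upstream the E-box and GC box shares were nearer to the background, with the E-box in 6.90% of the 29 against 5.58% of the tested genes and GGGCGG in 48.3% against 52.6%, while CCAAT stood at 58.6% against 26.0%. A DR4 element, the direct repeat bound by LXR with its partner RXR, was searched as an exact repeat and was in 0 of 29 and in 4 of all 27025 genes. Some genes have several listed start sites, and a gene counted if any of them had a match. Such matches describe letters and do not show binding.

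With the ABHD11 virus the sterol pathway was higher along most of its length, the enzymes that make palmitate did not pass, Scd2 stood out among the desaturases, and Scap was lower. Of the 37 genes 21 were higher with Adv-ABHD11, 3 were lower (Fads2, Srebf2 and Scap) and 13 did not pass (edgeR quasi-likelihood test, Benjamini-Hochberg adjusted p under 0.05 over all 12790 tested genes). This stood against 29.9% of all tested genes higher and 29.5% lower, as the arms differed widely. The share of the 37 genes that were higher was 56.8% and the share that were lower 8.11%. Values of the arms did not overlap for 23 of the 37 genes, or 62.2%, near the 63.2% of all tested genes. The median log2 fold change was 0.31 over the 37 genes and 0.02 over all tested genes. Among the called genes, 6 were at least 2-fold higher (Hmgcs1, Sc5d, Dhcr7, Scd2, Stard4 and Mylip) and 1 at least 2-fold lower (Scap). In bulk RNA, fewer cells of a type and less RNA per cell cannot be told apart.

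**Figure D1:**
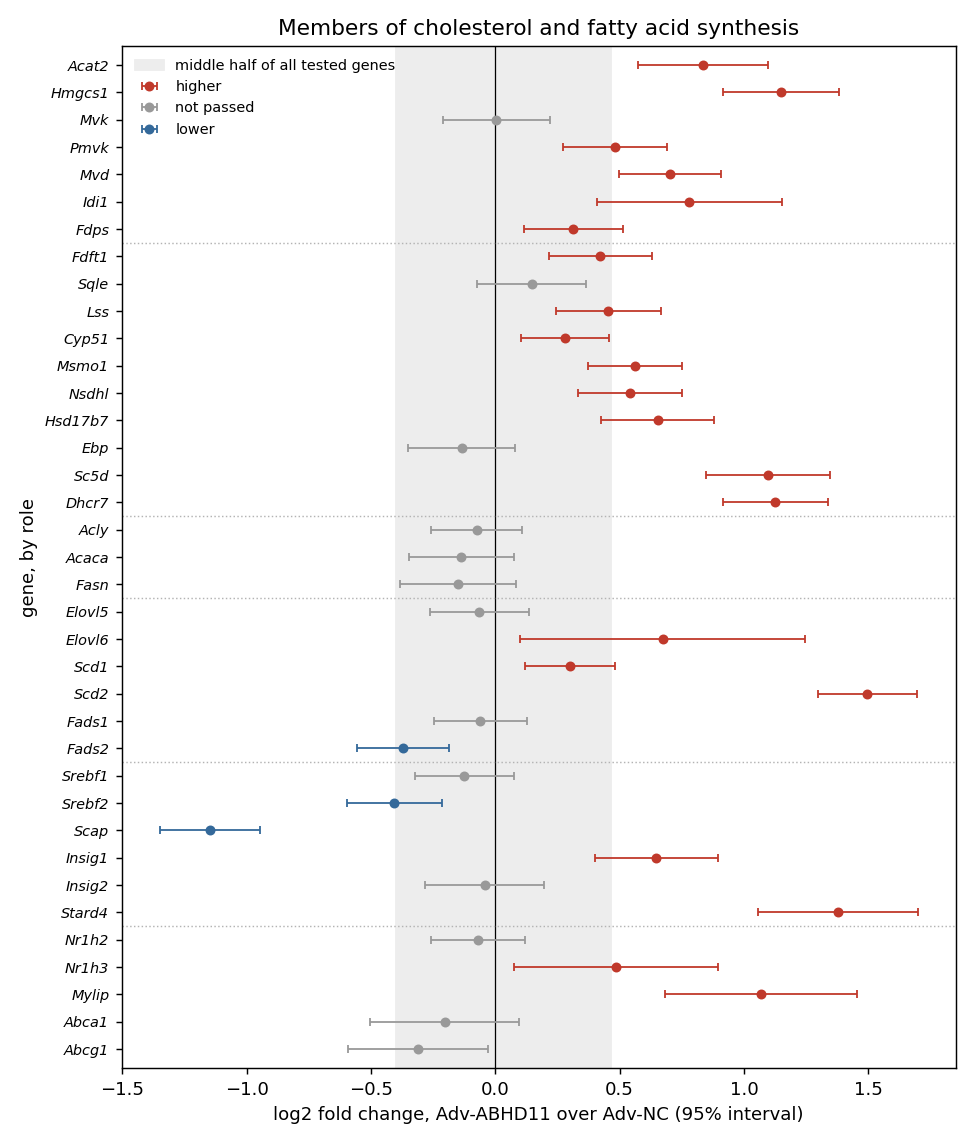
Log2 fold change of Adv-ABHD11 over Adv-NC for the 37 genes, by role from the first sterol enzymes at the top to LXR genes at the bottom, with 95% intervals from the edgeR fit; the grey band spans the middle 50% of all tested genes. Most sterol enzymes lie right of 0, Acly, Acaca and Fasn lie within the band, Scd2 lies farthest right at 1.50 and Scap farthest left at -1.15.

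In the early sterol pathway 6 of 7 enzymes were higher with Adv-ABHD11 and 0 lower, with a median log2 fold change of 0.70. Hmgcs1, which condenses acetyl-CoA and acetoacetyl-CoA to HMG-CoA, had 58.4, 60.4 and 68.6 CPM with Adv-ABHD11, against 32.5, 27.1 and 24.8 CPM with Adv-NC. Each Adv-ABHD11 library lay above each Adv-NC library, a 2.22-fold rise (log2 fold change 1.15 ± 0.111 SE, edgeR adjusted p = 8.7e-08). Acat2, the cytosolic thiolase that makes acetoacetyl-CoA, had 29.3, 29.9 and 24.5 CPM against 13.8, 17.8 and 15.2 CPM, a 1.79-fold rise (edgeR adjusted p = 1.63e-05). It shares 39.1% of its 50-base stretches with the near copy Acat3, to which at most 0.261 CPM were assigned in any library. The decarboxylase Mvd had 48.5, 52.6 and 45.4 CPM against 31.4, 29.0 and 29.6 CPM, 1.63-fold higher. Here too the arms were apart.

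The phosphorylation of mevalonate divided between its enzymes. Mvk, the mevalonate kinase, had 36.4, 36.8 and 31.5 CPM with Adv-ABHD11, against 32.1, 36.1 and 36.0 CPM with Adv-NC. These values overlapped, and the log2 fold change of 0.004 had a 95% interval of -0.21 to 0.22 (edgeR adjusted p = 0.976). Pmvk, which adds the next phosphate, had 38.9, 40.9 and 35.0 CPM against 26.7, 27.8 and 27.6 CPM and was 1.40-fold higher (edgeR adjusted p = 0.000477). Idi1, the isomerase that makes dimethylallyl diphosphate, was the most variable sterol enzyme, with 16.6, 29.1 and 24.2 CPM against 14.7, 15.6 and 10.5 CPM. Its lowest Adv-ABHD11 value was close to its highest Adv-NC value, and it was 1.72-fold higher (edgeR adjusted p = 0.00101). Fdps, which makes farnesyl diphosphate, had 224, 248 and 208 CPM against 166, 199 and 182 CPM, a rise of only 1.24-fold (edgeR adjusted p = 0.00866). Per kilobase of annotated exon, Fdps was by far the most abundant sterol enzyme, at 156 ± 14.0 CPM per kb with Adv-ABHD11 and 125 ± 11.5 CPM per kb with Adv-NC (SD, n = 3 each). Idi1 and Fdps share 17.7% and 26.2% of their 50-base stretches with other annotated genes, so their assignment of reads is less certain.

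From squalene to cholesterol 8 of 10 enzymes were higher and 0 lower, and their median log2 fold change was 0.50. Among these 10 the largest rises came at the end of the pathway, although Hmgcs1 in the early pathway rose as much (log2 fold change 1.15). Dhcr7, which reduces 7-dehydrocholesterol to cholesterol, had 38.6, 41.2 and 37.6 CPM with Adv-ABHD11, against 17.6, 18.4 and 17.7 CPM with Adv-NC. Sc5d, the sterol C5-desaturase one step earlier, had 24.9, 23.4 and 26.9 CPM against 12.0, 12.3 and 10.9 CPM. Both were more than 2-fold higher, with log2 fold changes of 1.13 ± 0.101 SE for Dhcr7 (edgeR adjusted p = 3.39e-08) and 1.10 ± 0.118 SE for Sc5d (edgeR adjusted p = 3.37e-07), and both kept the arms wide apart. In contrast Ebp, the isomerase just before Sc5d, had 33.1, 34.7 and 29.5 CPM against 35.0, 38.1 and 33.7 CPM, a log2 fold change of -0.14 with an interval of -0.35 to 0.08 (edgeR adjusted p = 0.267). Among the 17 chosen sterol enzymes, Ebp was thus the one with an estimate below 0.

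The other late enzymes moved by smaller steps. Hsd17b7, a ketosteroid reductase of C4-demethylation, was 1.57-fold higher, the C4-methyl oxidase Msmo1 1.48-fold and the decarboxylating dehydrogenase Nsdhl 1.46-fold. For Nsdhl the Adv-ABHD11 libraries lay at 37.7, 38.4 and 38.5 CPM, against 27.6, 24.2 and 26.9 CPM with Adv-NC. Lss, which closes the ring to lanosterol, had 34.6, 33.2 and 32.9 CPM against 24.7, 23.0 and 25.7 CPM and was 1.37-fold higher (edgeR adjusted p = 0.000769). Cyp51, the lanosterol demethylase, rose 1.21-fold (edgeR adjusted p = 0.00834), but with Adv-NC replicate 3 left out the adjusted p was 0.0503. Sqle, the squalene epoxidase and a rate-limiting step, had 27.0, 29.5 and 32.5 CPM with Adv-ABHD11 against 26.8, 27.2 and 26.6 CPM with Adv-NC. Its lowest Adv-ABHD11 value lay inside the Adv-NC range, and it did not pass (log2 fold change 0.15, edgeR adjusted p = 0.237), but passed under upper-quartile scaling (adjusted p = 0.0438). The oxygen-using enzymes therefore stood on both sides of the threshold. Fdft1, the squalene synthase, had 85.0, 97.9 and 83.8 CPM against 58.7, 72.4 and 67.7 CPM, 1.34-fold higher. The strand of the counting is not stated, and 774 bases of Fdft1 exons overlap those of the cathepsin gene Ctsb on the opposite strand, whose log2 fold change was -0.47. For Cyp51, 166 bases of exons overlap Akap9 on the opposite strand, which encodes a scaffold protein and moved the same way as Cyp51 (log2 fold change 0.78, edgeR adjusted p = 0.000331). Exons on the opposite strand also overlap parts of Hmgcs1, Idi1, Lss and Srebf1, whose counts carry the same doubt.

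**Figure D2:**
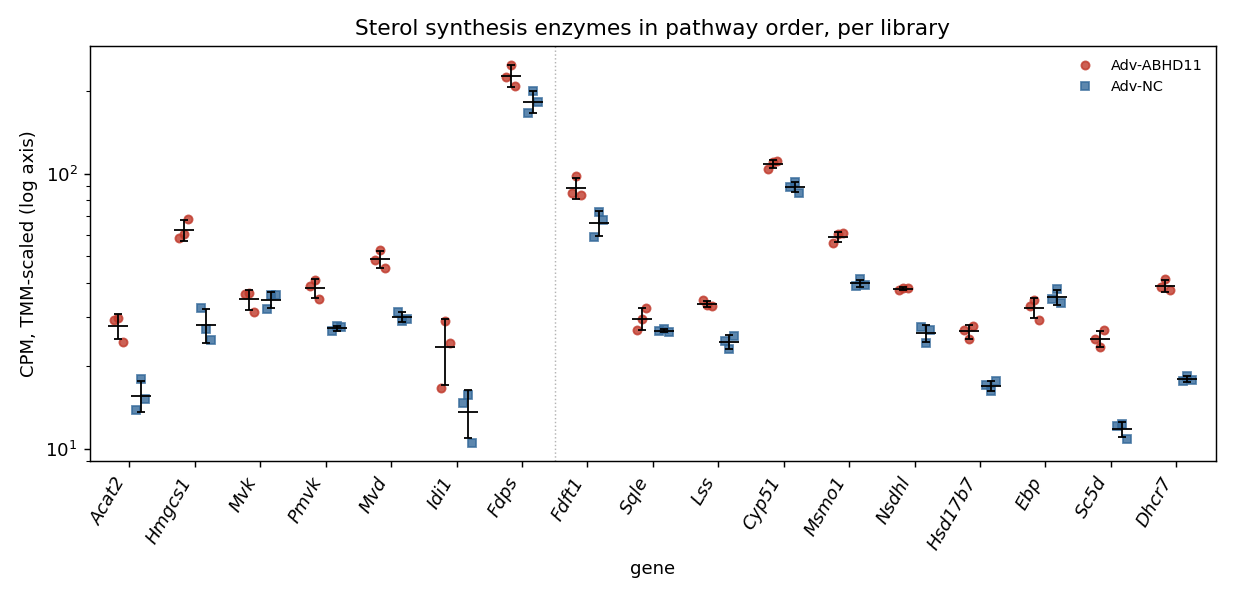
CPM on TMM-scaled library sizes (log axis) for the 17 sterol enzymes in pathway order, Adv-ABHD11 (circles) left of Adv-NC (squares) for each gene, one point per library, with mean and SD in black. The points of the arms separate for 14 genes and overlap for Mvk, Sqle and Ebp.

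Taken as a sum, the 17 sterol enzymes reached 920, 991 and 919 CPM with Adv-ABHD11, against 665, 719 and 677 CPM with Adv-NC, a ratio of 1.37. Within the Adv-ABHD11 arm replicate 2 had the highest level of 9 of the 17 enzymes, and within the Adv-NC arm replicate 2 had the highest of 12. Without Adv-NC replicate 1, which held the liver transcripts, 14 of the 17 were again higher. In the same libraries the 8 cardiomyocyte markers had a median log2 fold change of 0.82 and the 7 endothelial markers of 0.75. The 7 fibroblast markers went mostly the other way, with a median of -0.30, 4 lower and 1 higher. Of 5 smooth muscle markers 4 were higher, with a median of 0.68 and summed levels of 3789 to 4356 CPM with Adv-ABHD11 against 2541 to 3058 CPM with Adv-NC, a ratio of 1.42. The part of these cells, or of the lung transcripts, in the sterol values was not tested.

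The 3 enzymes that turn citrate into palmitate did not pass, in either direction. Fasn, the fatty acid synthase, had 313, 230 and 254 CPM with Adv-ABHD11, against 293, 264 and 327 CPM with Adv-NC. Its arms overlapped, with a log2 fold change of -0.15 and an interval of -0.38 to 0.08 (edgeR adjusted p = 0.260). Without Adv-ABHD11 replicate 1, the highest of its arm, the log2 fold change was -0.28 and passed (adjusted p = 0.0412). Acaca, the acetyl-CoA carboxylase that makes malonyl-CoA, had 41.2, 37.2 and 39.8 CPM against 46.3, 38.6 and 45.0 CPM (interval of the log2 fold change -0.35 to 0.07), and 30.4% of its 50-base stretches recur in other annotated genes. Acly, which splits citrate in the cytosol, had 123, 115 and 117 CPM against 117, 122 and 134 CPM (interval -0.26 to 0.11). These intervals leave out a 1.5-fold change in either direction.

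The step that followed showed the largest difference of all 37 genes. Scd2, a stearoyl-CoA desaturase that makes monounsaturated fatty acids (chromosome 19, 44293674 to 44306864, plus strand, GRCm38), had 1056, 908 and 1052 CPM with Adv-ABHD11, against 363, 348 and 358 CPM with Adv-NC. The arms lay far apart, a 2.82-fold rise (log2 fold change 1.50 ± 0.0940 SE, edgeR adjusted p = 2.82e-10). Its neighbour Scd1 (chromosome 19, 44394455 to 44407879, minus strand), the main form in liver and fat, had 111, 102 and 112 CPM against 90.7, 83.3 and 90.4 CPM. The rise of Scd1 was 1.23-fold (edgeR adjusted p = 0.00611). Counted per kb of exon, Scd1 stood to Scd2 at 0.119, 0.127 and 0.120 with Adv-ABHD11, against 0.282, 0.270 and 0.285 with Adv-NC. Scd2 was thus the major form in both arms, and more so with Adv-ABHD11. The pair shares few stretches, 2.66% of the 50-base stretches of Scd2 being found in Scd1. Scd2 had the highest level of the elongases and desaturases, whose sum was 1448 ± 93.8 CPM with Adv-ABHD11 and 822 ± 26.7 CPM with Adv-NC (SD, n = 3 each). Scd2 alone had means of 1005 CPM and 356 CPM, so the difference between these sums came from Scd2 and not from the group as a whole.

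The desaturases of polyunsaturated fatty acids did not follow. Fads2, the delta-6 desaturase, was lower at 128, 121 and 115 CPM with Adv-ABHD11, against 146, 157 and 167 CPM with Adv-NC. It fell 1.29-fold with no overlap (log2 fold change -0.37 ± 0.0878 SE, edgeR adjusted p = 0.00145). Fads1, the delta-5 desaturase beside it on chromosome 19, had 174, 169 and 166 CPM against 159, 181 and 191 CPM and did not pass (edgeR adjusted p = 0.574). Elovl5, the elongase of polyunsaturated fatty acids, had 40.7, 37.2 and 41.3 CPM against 41.3, 39.7 and 43.6 CPM (edgeR adjusted p = 0.577). Neither gene separated the arms. Elovl6, which extends palmitate to stearate, was scarce, with 3.29, 2.82 and 3.54 CPM against 2.86, 1.88 and 1.33 CPM. The Elovl6 arms overlapped, and its 1.59-fold rise (log2 fold change 0.67, edgeR adjusted p = 0.0410) lay close to the threshold. With Adv-ABHD11 replicate 1 or 3 left out the log2 fold change was 0.66 or 0.59 (adjusted p = 0.0840 or 0.150). With Adv-NC replicate 2 or 3 left out it was 0.61 or 0.44 (adjusted p = 0.121 or 0.197), and in DESeq2 0.67 (adjusted p = 0.0923). The call was lost in each of these, while the estimate stayed above 0.

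**Figure D3:**
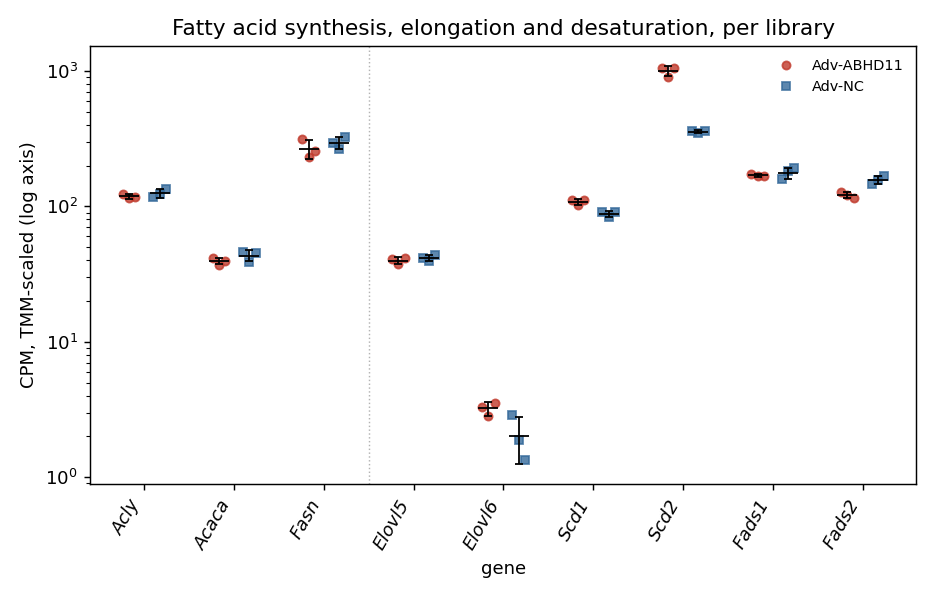
CPM on TMM-scaled library sizes (log axis) for 3 enzymes of fatty acid synthesis and 6 of elongation and desaturation, Adv-ABHD11 (circles) left of Adv-NC (squares), one point per library, with mean and SD in black. Scd2 stands near 1005 CPM with Adv-ABHD11 and 356 CPM with Adv-NC, Fads2 is lower with Adv-ABHD11, and the points of Acly, Acaca and Fasn overlap.

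Of the 6 SREBP regulators 2 were higher (33.3%), 2 lower (33.3%) and 2 did not pass. These shares were near the 29.9% higher and 29.5% lower of all tested genes. Scap, the sterol sensor that escorts SREBP to the Golgi (chromosome 9, 110333288 to 110384950, plus strand, GRCm38), had 64.0, 56.6 and 51.5 CPM with Adv-ABHD11, against 123, 122 and 136 CPM with Adv-NC. Every Adv-ABHD11 library was well below every Adv-NC library, a 2.22-fold fall (log2 fold change -1.15 ± 0.0961 SE, edgeR adjusted p = 1.39e-08). An annotated transcript on the opposite strand overlaps 785 bases of its exons. Srebf2, the SREBP that mainly drives sterol enzymes, had 183, 164 and 173 CPM against 223, 214 and 252 CPM. It was 1.33-fold lower with no overlap (edgeR adjusted p = 0.00086). Srebf1, whose product mainly drives fatty acid enzymes, had 147, 116 and 131 CPM against 144, 137 and 149 CPM and did not pass (edgeR adjusted p = 0.272). Counts per symbol do not separate the Srebf1a and Srebf1c transcripts. Relative to Srebf2, per kb of exon, Srebf1 stood at 0.950, 0.839 and 0.891 with Adv-ABHD11, against 0.760, 0.756 and 0.697 with Adv-NC.

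Stard4 and Insig1, both known targets of SREBP-2, were higher. Stard4, a carrier that moves cholesterol between membranes, was scarce but clearly separated, with 12.9, 13.7 and 16.0 CPM with Adv-ABHD11, against 6.04, 5.37 and 4.98 CPM with Adv-NC. It rose 2.60-fold (log2 fold change 1.38 ± 0.152 SE, edgeR adjusted p = 4.87e-07), the second largest rise among the 37 genes. Insig1, the retention protein that SREBP itself induces, had 23.1, 25.3 and 28.9 CPM against 15.9, 17.7 and 15.9 CPM, a 1.57-fold rise without overlap (edgeR adjusted p = 0.000126). Its relative Insig2, which is less dependent on SREBP, had 18.2, 17.1 and 18.7 CPM against 18.3, 19.9 and 17.5 CPM and did not pass (edgeR adjusted p = 0.764). Per kb of exon, Insig1 stood to Insig2 at 1.39, 1.62 and 1.69 with Adv-ABHD11, against 0.950, 0.972 and 0.992 with Adv-NC. The pair was therefore near parity with Adv-NC, and Insig1 was the more abundant with Adv-ABHD11.

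The LXR genes showed no common direction. Nr1h2, which encodes LXR-beta, had 90.1, 84.3 and 82.6 CPM with Adv-ABHD11, against 81.3, 93.9 and 94.5 CPM with Adv-NC (edgeR adjusted p = 0.520). Nr1h3, which encodes LXR-alpha, had 8.19, 10.3 and 6.30 CPM against 4.75, 6.83 and 6.11 CPM. The arms of both receptors overlapped. Nr1h3 passed as 1.40-fold higher (log2 fold change 0.48, edgeR adjusted p = 0.0406), also close to the threshold. The log2 fold change of Nr1h3 was 0.49 or 0.30 with Adv-ABHD11 replicate 1 or 2 left out (adjusted p = 0.0722 or 0.213). It was 0.36 or 0.51 with Adv-NC replicate 1 or 3 left out (adjusted p = 0.128 or 0.0753). In DESeq2 it was 0.48 (adjusted p = 0.0725) and in limma voom 0.46 (adjusted p = 0.0550), so the call was lost in each while the estimate stayed above 0. Per kb of exon Nr1h3 stood at 0.0902 ± 0.0222 of Nr1h2 with Adv-ABHD11 and at 0.0609 ± 0.00673 with Adv-NC (SD, n = 3 each), so Nr1h2 was the major receptor transcript in both arms.

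The targets of LXR did not move as a set. Mylip, the ubiquitin ligase that degrades lipoprotein receptors, had 8.73, 8.24 and 8.31 CPM with Adv-ABHD11, against 5.07, 3.29 and 3.70 CPM with Adv-NC. It rose 2.10-fold with no overlap (log2 fold change 1.07 ± 0.183 SE, edgeR adjusted p = 7.29e-05). Abca1, which loads cholesterol onto apolipoprotein A-I, had 22.7, 20.0 and 23.2 CPM against 31.7, 19.6 and 24.5 CPM. It overlapped and did not pass (log2 fold change -0.20, edgeR adjusted p = 0.231). Adv-NC decided this value, for Abca1 was at 0.005 without Adv-NC replicate 1 and at -0.37 without Adv-NC replicate 2, where it passed (adjusted p = 0.0303). Abcg1, which exports cholesterol to high-density lipoprotein, had 12.0, 10.0 and 11.8 CPM against 14.5, 12.7 and 14.6 CPM. The Abcg1 arms did not overlap, yet its log2 fold change of -0.31 ± 0.134 SE just missed the threshold (edgeR adjusted p = 0.0552) and passed without Adv-NC replicate 2 (0.0406) and with a replicate block (0.0435).

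**Figure D4:**
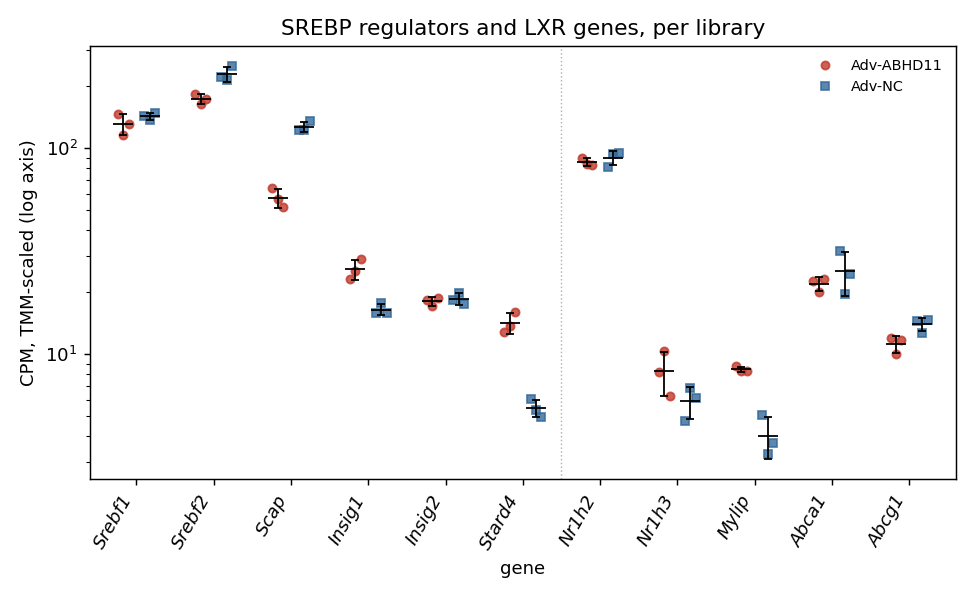
CPM on TMM-scaled library sizes (log axis) for 6 SREBP regulators and 5 LXR genes, Adv-ABHD11 (circles) left of Adv-NC (squares), one point per library, with mean and SD in black. Scap and Srebf2 lie lower with Adv-ABHD11, Insig1, Stard4 and Mylip lie higher, and Srebf1, Insig2, Nr1h2, Nr1h3 and Abca1 overlap.

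Other genes of the same pathways were counted from 4 further lists. Of 46 tested, 14 were higher (30.4%) and 17 lower (36.96%), against 29.9% and 29.5% of all tested genes, with a median log2 fold change of -0.13. The share that was higher is near that of all genes. In the remaining sterol list 1 of 6 was higher and 3 were lower. Tm7sf2, a sterol C14-reductase, was 2.04-fold higher, at 8.91 ± 1.01 CPM with Adv-ABHD11 and 4.35 ± 0.400 CPM with Adv-NC (SD, n = 3 each). Lbr, a nuclear envelope protein that carries the same activity, fell 1.29-fold. Aacs, which activates acetoacetate for lipid synthesis, fell 1.44-fold.

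Among 17 other genes of fatty acid synthesis 8 were higher (47.1%) and 4 lower (23.5%), against 29.9% and 29.5% of all tested genes. Mid1ip1, an activator of acetyl-CoA carboxylase, was 2.29-fold higher at 143 ± 7.0 CPM with Adv-ABHD11 and 62.5 ± 1.45 CPM with Adv-NC (edgeR adjusted p = 1.64e-09). Acss2, which makes cytosolic acetyl-CoA from acetate, rose 2.20-fold (edgeR adjusted p = 1.19e-08). Acacb, the mitochondrial carboxylase whose malonyl-CoA restrains fatty acid uptake into mitochondria, rose 1.65-fold, whereas its cytosolic relative Acaca did not pass. Hacd1, the muscle form of the elongation dehydratase, rose 1.74-fold.

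In sterol sensing and transport, 4 of 14 genes were higher (28.6%) and 7 lower (50%), against 29.9% and 29.5% of all tested genes. Npc2, which helps cholesterol leave the lysosome, was 1.98-fold lower (edgeR adjusted p = 1.75e-07). It stood at 536 ± 48.1 CPM with Adv-ABHD11 and 1060 ± 94.7 CPM with Adv-NC. Its partner Npc1 fell 1.66-fold and Soat1, which esterifies cholesterol, 1.31-fold. Gramd1a, which moves cholesterol from the plasma membrane to the endoplasmic reticulum, rose 1.38-fold. Of the list of LXR partners, targets and oxysterol enzymes 1 of 9 was higher (11.1%) and 3 lower (33.3%). The share that was lower is near that of all genes. Ch25h, which makes the oxysterol that restrains SREBP processing, fell 2.07-fold to 40.7 ± 1.76 CPM with Adv-ABHD11, against 84.1 ± 2.59 CPM with Adv-NC (edgeR adjusted p = 1.45e-08). Cyp7b1, which clears that oxysterol, rose 3.79-fold to 8.60 ± 1.02 CPM, against 2.26 ± 0.656 CPM (edgeR adjusted p = 4.6e-07). The LXR targets Arl4c and Pltp fell 2.26-fold and 2.19-fold. Macrophage markers, whose cells express many LXR targets, summed to 71.0 to 78.8 CPM with Adv-ABHD11 and 72.1 to 92.4 CPM with Adv-NC. These sums hide opposite moves, 2 of 8 markers being higher and 2 lower. Csf1r was 3.00-fold and Cd68 1.61-fold lower, while Lyz2 was 1.59-fold higher. The part of macrophages in the LXR values was not tested.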

How the data were processed

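For every library the authors deposited expected counts by gene symbol, which are not scaled to library size. The submitters' processing notes name Trimmomatic 0.39, HISAT2, RSEM, DESeq2 and mm10, with no role for each. Strandedness, annotation release and read filters are not stated. Of 21763 rows, 22 repeated a symbol and the row with the most counts was kept. Expected counts were rounded to whole numbers. The arms were tested against each other by edgeR 4.0.16 (R 4.3.3; filterByExpr with a minimum count of 10 and a minimum total of 15, TMM scaling, quasi-likelihood F test, Benjamini-Hochberg adjustment over 12790 genes, threshold 0.05). A standard error is the log2 fold change divided by the square root of F, and its 95% interval uses the same fit. Precision follows the 16292756 to 20338700 counts per library. Levels per kb used the union of exons in GENCODE M21 (GRCm38, also named mm10), in which 21073 symbols were found. Shared sequence was measured as 50-base stretches of GENCODE transcripts.

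Simulated counts of 12790 genes, made from these libraries, were used to check the fit. Of 50 genes altered at each size it found 35 at 1.5-fold, 45 at 2-fold, 49 at 4-fold and all at 8-fold. Of its 193 calls 14 were false. Far fewer genes were altered than the 3821 called higher and 3768 called lower in the real libraries. The Benjamini-Hochberg cut-off was therefore stricter in the simulation, and its shares do not carry over directly. No pair of replicates agreed within counting noise. The genes, lists and roles were chosen with earlier results of these data known, and no test of a list was run. The rule for naming took every chosen gene, up to 4 genes of each other pathway list by smallest adjusted p (1 gene so chosen is not reported here), and up to 3 of each marker list by highest CPM; Plin1, Lep and genes on the opposite strand were named beyond it, after their values were seen. The promoter of Scd2, the largest rise, was not used here. Promoters of Scap (largest fall) and Hmgcs1 (TCACNCCAC upstream) were printed by rule, and those of Sc5d, Mvd and Ebp, the sterol enzymes with 1 listed start site and no annotated exon in the window, were added after the values were seen. Alternatives were DESeq2 1.42.0, limma 3.58.1 (voom), other scalings and filters, the block, and leaving out each library.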

Additional observations from a re-analysis of the deposited data

How the results depend on the processing

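The calls most often lost were those of Elovl6 and Nr1h3, which are among the scarcest of the 37 genes. Over all alternatives the number of higher genes among the 37 ran from 18 to 22 and the number of lower ones from 3 to 5. The 5 arose without Adv-NC replicate 2, where Abca1 (-0.37) and Abcg1 also passed. Sterol enzymes called higher numbered 13 to 15. With a replicate block 4 of the 37 were lower, Abcg1 at -0.31 being added. Same-numbered libraries deviated with correlations of 0.0102, 0.204 and -0.104, and libraries of unlike number with -0.162 to 0.179. These values gave no sign that the numbers pair the libraries. With 3 libraries per arm they cannot exclude it. Upper-quartile scaling shifted the median of all genes by 0.107 on the log2 scale. Some estimates near 0 changed sign, none of them passing. Under upper-quartile scaling Acly was at 0.033, Elovl5 at 0.043, Fads1 at 0.047, Insig2 at 0.064 and Nr1h2 at 0.038. Mvk was at -0.0017 in DESeq2, at -0.00024 with DESeq2 size factors, and from -0.038 to 0.070 with single libraries left out. On leaving out single libraries Insig2 ran from -0.086 to 0.0029 and Abca1 from -0.37 to 0.0048. The cause of these changes was not tested. Within 100 bases upstream, CACGTG was found in 2, GGGCGG in 14 and TCACNCCAC in 0 of 29 promoters, and GGGCGG was then less frequent than among tested genes. Without length correction the ratio of Scd1 to Scd2 was 0.108 with Adv-ABHD11 and 0.247 with Adv-NC, that of Srebf1 to Srebf2 0.756 and 0.625, and that of Insig1 to Insig2 0.887 with Adv-NC.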
